A study of Mus musculus with 6 samples.

Results

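Globins and a pair of other red blood cell genes were followed in bulk RNA-seq of the epidermis of newborn mice, in 3 libraries whose genotype label is Paxbp1 knockout and 3 whose label is wild type. The 6 genes, taken by name from the 54532 genes of the count table, are the adult alpha globins Hba-a1 and Hba-a2, the adult beta globins Hbb-bs and Hbb-bt, the heme enzyme gene Alas2 and the anion exchanger gene Slc4a1. Per the labels' protocols, the skin was kept overnight at 4 °C in Dispase II, an enzyme that loosens the epidermis, and RNA was extracted from the epidermis after the dermis had been peeled away. The sources used here give no allele, Cre driver, strain, sex, exact age or number of animals per library. Nor do they state that libraries of a group came from separate animals, so the p-values speak of the spread among these 6 libraries, which may be technical.

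Hemoglobin is a tetramer of alpha and beta globin chains, each holding a heme group, and adult red blood cells carry it as their main protein. Alas2 makes the erythroid form of the first enzyme of heme synthesis, and Slc4a1 makes band 3, the anion exchanger that anchors the red cell membrane to its skeleton. Mouse red blood cells lose their nucleus, reticulocytes keep globin RNA for a time after that, and the epidermis itself has no blood vessels.

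The alpha globin genes lie on the plus strand of chromosome 11 (GRCm38, the build that the submitters' notes call mm10), Hba-a1 (ENSMUSG00000069919) from 32283511 to 32284465 and Hba-a2 (ENSMUSG00000069917) from 32296489 to 32297298. Hbb-bs (ENSMUSG00000052305) and Hbb-bt (ENSMUSG00000073940) lie on the minus strand of chromosome 7, from 103826534 to 103828096 and from 103812524 to 103813996. Alas2 (ENSMUSG00000025270) lies on the plus strand of chromosome X from 150547375 to 150570638, and Slc4a1 (ENSMUSG00000006574) on the minus strand of chromosome 11 from 102348824 to 102366203. In the GENCODE transcripts of the same build, each globin has 3 exons, Alas2 has 11 and Slc4a1 has 20.

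The paralogs of each globin class are so alike that their separate counts are uncertain, and the bases that tell them apart are shown for that reason. The coding sequences of Hba-a1 and Hba-a2, 426 bases each without the stop codon, differ at 1 base, C381T, and those of Hbb-bs and Hbb-bt, 441 bases each, at 1 base, C417T. Positions count from the first base of the start codon, with the base of Hba-a1 or Hbb-bs first. The 31 coding bases around each difference are printed 5′ to 3′ with the differing base in capitals.
Hba-a1: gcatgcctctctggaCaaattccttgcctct
Hba-a2: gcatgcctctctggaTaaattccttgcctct
Hbb-bs: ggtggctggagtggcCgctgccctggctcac
Hbb-bt: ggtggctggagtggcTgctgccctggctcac
Of all 50-base windows of the Hba-a1 transcript, 67.5% also occurred in that of Hba-a2, and 86.9% of the Hba-a2 windows occurred in Hba-a1. For Hbb-bs and Hbb-bt these shares were 65.8% and 58.3%. Hba-a1 and Hbb-bs shared no such window, so the alpha and beta classes can be told apart even where paralogs cannot.

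Sequence upstream of Hba-a2, Hbb-bs, Hbb-bt and Alas2 is printed from RefSeq (GRCm38.p6), 5′ to 3′ on the strand of the gene. Slc4a1 had no entry among the upstream sequences used here, so its motifs were not read. The RefSeq starts lie inside the gene spans given above, so the 250 bases before them reach into those spans by 3 bases for Hba-a2, 42 for Alas2, 73 for Hbb-bt, 161 for Hba-a1 and 168 for Hbb-bs, and only the stretch before each span is printed. Capitals mark the motif GATAA of the GATA factors (read TTATC on the opposite strand), the motif CACCC of Klf1-type zinc fingers (GGGTG on the opposite strand) and the motif CCAAT of the CCAAT factors (ATTGG on the opposite strand). Where matches touch or overlap, the capitals run together.
Hba-a2, chr11:32296242-32296488, plus strand: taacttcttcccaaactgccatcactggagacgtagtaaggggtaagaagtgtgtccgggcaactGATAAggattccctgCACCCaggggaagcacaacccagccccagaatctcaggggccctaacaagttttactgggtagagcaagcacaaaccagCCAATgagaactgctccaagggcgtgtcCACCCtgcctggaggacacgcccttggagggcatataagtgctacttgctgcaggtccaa
Hbb-bs, chr7:103828097-103828178, minus strand: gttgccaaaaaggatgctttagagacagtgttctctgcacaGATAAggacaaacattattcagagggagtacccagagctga
Hbb-bt, chr7:103813997-103814173, minus strand: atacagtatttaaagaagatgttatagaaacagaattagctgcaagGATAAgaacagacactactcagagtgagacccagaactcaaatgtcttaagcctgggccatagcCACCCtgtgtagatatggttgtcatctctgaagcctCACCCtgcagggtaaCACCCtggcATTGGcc
Alas2, chrX:150547167-150547374, plus strand: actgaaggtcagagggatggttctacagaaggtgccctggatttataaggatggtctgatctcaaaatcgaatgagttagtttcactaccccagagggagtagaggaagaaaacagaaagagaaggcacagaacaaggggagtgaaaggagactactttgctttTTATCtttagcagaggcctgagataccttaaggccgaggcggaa
The 250 bases before the RefSeq start of Hba-a1 are the same as those of Hba-a2 over all 247 aligned bases, shifted by 3 bases. Counted from the RefSeq start, over all 250 bases, GATAA lies at positions -209 to -182 in the 4 globins and at -86 in Alas2. CACCC occurred 1 to 3 times and CCAAT 1 to 3 times in each globin sequence, while the Alas2 window held 3 CACCC matches and no CCAAT. Some of these matches lie in the part of the windows that is not printed. Among 32851 such windows of 250 bases, 22.6% held GATAA, 52.0% CACCC and 33.8% CCAAT, and 3.45% held all 3, as the 4 globins did. These matches describe letters, and no binding was measured.

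Totals ran from 16643839 to 17816327 counts in the libraries labelled knockout and from 16315317 to 17802056 in those labelled wild type. Paxbp1 had 2370, 1127 and 1125 counts in the libraries labelled knockout and 2007, 1159 and 1467 in those labelled wild type, so its counts overlapped and did not check the labels (edgeR, log2 fold change 0.10 ± 0.29 SE, adjusted p = 0.783). Of 11 tested keratinocyte genes, all 11 were lower in the libraries labelled knockout, where their summed level was 4615 to 11963 CPM, against 86008 to 141464 CPM in those labelled wild type. The log2 fold change was -6.20 for Krt15, -5.05 for the cornified envelope gene Lor and -3.49 for Krt1. Of the 16471 genes tested, 28.7% were called higher and 25.1% lower in knockout. Here, CPM is the count scaled by library size and TMM factor, and called means a Benjamini-Hochberg adjusted p under 0.05 in edgeR's quasi-likelihood test over all genes tested. "Knockout" and "wild type" name the libraries by their labels.

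All 6 genes were higher in knockout than in wild type, 6 of 6 called against the 28.7% of all genes called higher, and in 6 of 6 every knockout library exceeded every wild-type library, against 31.9% of all genes. The globins rose by 7.80 to 8.64 on the log2 scale, Slc4a1 by 6.18 and Alas2 by 4.91, while the median of all genes tested was -0.03. The 4 globins together made up 0.201%, 0.156% and 0.0853% of all counts in knockout and 0.00057%, 0.000775% and 0.000354% in wild type. In bulk tissue, fewer cells of a type and less RNA per cell cannot be told apart.

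Hba-a1, the alpha globin row with most reads, had 15772, 13085 and 7035 counts in knockout replicates 1, 2 and 3 and 54, 76 and 42 counts in wild type. The third knockout library was the lowest of its group, and still far above every wild-type library. The mean level was 728 ± 254 CPM in knockout and 3.27 ± 1.24 CPM in wild type (SD, n = 3 each), a log2 fold change of 7.80 ± 0.47 (SE; edgeR adjusted p = 3.64e-07). Hba-a2 had 747, 280 and 429 counts in knockout and 2, 3 and 0 in wild type. It was lowest in the second knockout library, not in the third, and its groups lay far apart. Its log2 fold change was 8.17 ± 0.59 (edgeR adjusted p = 1.11e-06), and 8.88 without the second wild-type library.

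Hbb-bs, the beta globin row with most reads, had 15436, 12309 and 6923 counts in knockout and 33, 39 and 21 in wild type. The order of the knockout libraries was that of Hba-a1. Its mean was 702 ± 239 CPM in knockout and 1.77 ± 0.636 CPM in wild type (SD, n = 3 each), with a log2 fold change of 8.64 ± 0.47 (edgeR adjusted p = 2.25e-07). Hbb-bt had 1470, 1497 and 804 counts in knockout and 4, 11 and 0 in wild type. Here the first and second knockout libraries were nearly equal and the third was again the lowest. The log2 fold change of Hbb-bt was 8.05 ± 0.63 (edgeR adjusted p = 1.92e-06), 9.38 without the second wild-type library and 7.45 without the third.

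Alas2, which supplies heme to hemoglobin, had 354, 281 and 226 counts in knockout and 19, 2 and 10 in wild type. The knockout libraries were close to each other, and the wild-type libraries spread widely around few counts. The mean was 17.5 ± 3.12 CPM in knockout and 0.563 ± 0.458 CPM in wild type (SD, n = 3 each), a log2 fold change of 4.91 ± 0.50 (edgeR adjusted p = 1.35e-05), and 5.68 without the first wild-type library. Slc4a1, the band 3 gene, had 112, 43 and 75 counts in knockout and 2, 1 and 0 in wild type. Like Hba-a2, it was lowest in the second knockout library. With 3 counts in all of wild type, the ratio of its scaled counts was 83.6, with an exact 95% counting interval of 28.2 to 408, and its log2 fold change was 6.18 ± 0.72 (edgeR adjusted p = 3.37e-05), and 7.01 without the first wild-type library.

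**Figure D1:**
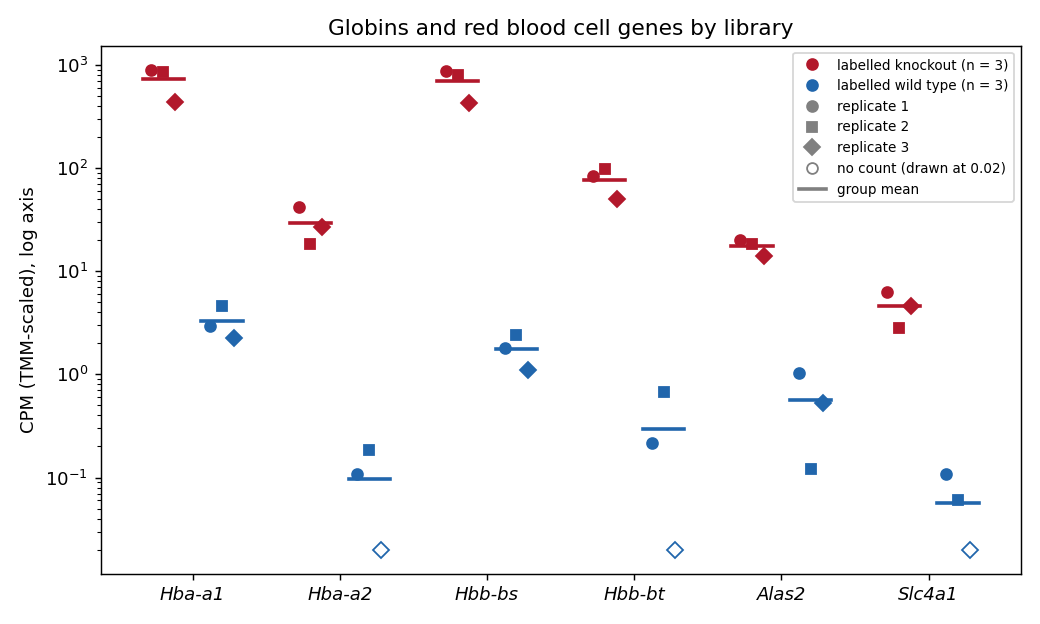
TMM-scaled CPM of the 6 genes in each library on a log axis, libraries labelled knockout in red on the left of each gene and those labelled wild type in blue on the right, with group means as bars and open symbols for no count. The knockout libraries lie above the wild-type libraries for each gene, with Hba-a1 and Hbb-bs at 429 to 893 CPM in knockout and 1.11 to 4.65 CPM in wild type.

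Levels were compared between genes on the deposited FPKM, which is scaled by length. In knockout, Hbb-bs averaged 907 ± 304 FPKM and Hba-a1 889 ± 304 FPKM (SD, n = 3), which did not differ beyond their spread. Hbb-bt followed at 109 ± 34.0 FPKM, then Hba-a2 at 43.3 ± 18.1 FPKM, Alas2 at 7.22 ± 1.24 FPKM and Slc4a1 at 0.935 ± 0.358 FPKM, and from Hba-a1 downwards no library of a gene overlapped those of the next. In wild type, Hba-a1 averaged 3.94 ± 1.53 FPKM and Hbb-bs 2.25 ± 0.823 FPKM (SD, n = 3), and their ranges overlapped. Hbb-bt at 0.414 ± 0.483 FPKM, Alas2 at 0.227 ± 0.182 FPKM and Hba-a2 at 0.143 ± 0.136 FPKM also overlapped, and Slc4a1 had the lowest mean at 0.0113 ± 0.0107 FPKM. In the third wild-type library Slc4a1, Hbb-bt and Hba-a2 were listed at 0.

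The other genes of the globin clusters were at or near 0. Hba-x, the embryonic zeta globin, had 3, 1 and 2 counts in knockout, and Hbb-y, the embryonic epsilon-y globin, had 4, 0 and 2, with none in any wild-type library. Hbq1b, a theta globin that lies between the adult alpha genes, had 11, 2 and 3 counts in knockout and none in wild type. With 3 counts set as a floor over the wild-type group, the ratio to knockout was 5.81 for Hbq1b and 2.18 each for Hba-x and Hbb-y. These ratios take the few knockout counts as they stand, without their counting error. Hbb-y, with no count in the second knockout library, overlapped between the groups. These genes fell below the filter on low counts and were not tested. Hbb-bh0, Hbb-bh1, Hbb-bh2, Hbb-bh3 and Hbq1a had no count in any of the 6 libraries, which allows up to 3 counts over each group. The adult genes therefore held nearly all reads of both clusters.

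**Figure D2:**
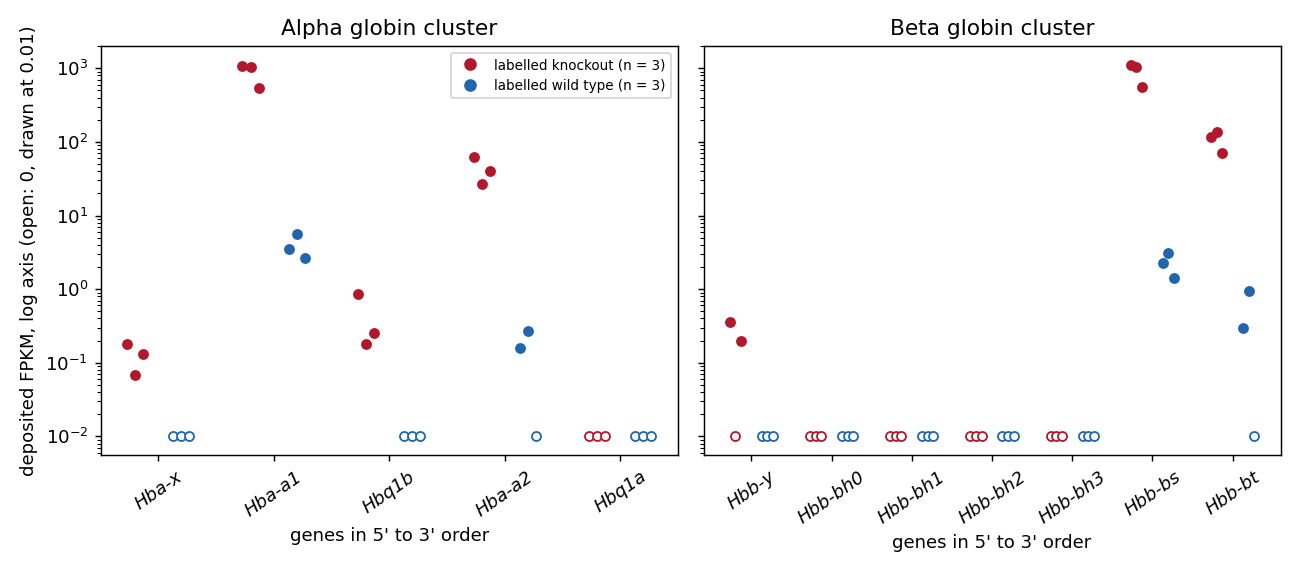
Deposited FPKM, on a log axis, of the genes of the alpha and beta globin clusters in 5′ to 3′ order, libraries labelled knockout in red to the left and those labelled wild type in blue to the right, with open circles for libraries listed at 0. The adult genes Hba-a1 and Hbb-bs reach 539 to 1127 FPKM in knockout, and Hbb-bh0, Hbb-bh1, Hbb-bh2, Hbb-bh3 and Hbq1a are at 0 in all libraries.

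Of the globin genes outside the clusters, Cygb alone was tested. Cygb, which encodes cytoglobin of fibroblast-like cells, had 6, 0 and 2 counts in knockout and 373, 373 and 501 in wild type, so it fell where the adult globins rose (edgeR log2 fold change -7.11 ± 0.52, and -8.35 without the first knockout library). Myoglobin (Mb) had 9, 8 and 0 counts in knockout and 1, 9 and 5 in wild type. The ranges of myoglobin overlapped, and it was not tested.

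Balance between the chains was read from summed paralogs. How reads that map to both paralogs were counted is not stated, and its part in the balance of the classes was not tested. The alpha genes together had 1152, 1068 and 579 FPKM in knockout and 3.64, 5.93 and 2.69 FPKM in wild type. The beta genes together had 1244, 1172 and 632 FPKM in knockout and 2.55, 4.01 and 1.42 FPKM in wild type. In these sums alpha was below beta in each knockout library and above beta in each wild-type library. Each FPKM row is scaled by its own length, so the split between paralogs enters these sums, while the sums of counts below do not depend on it. With the paralog rows summed, the fitted log2 fold change was 7.81 ± 0.47 for alpha and 8.57 ± 0.51 for beta (SE, edgeR).

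The alpha share of adult globin counts was 49.4%, 49.2% and 49.1% in knockout and 60.2%, 61.2% and 66.7% in wild type. The groups did not overlap, and the 3 knockout libraries lay within a fraction of a percentage point of each other. The mean share was 49.2 ± 0.152% in knockout and 62.7 ± 3.47% in wild type (SD, n = 3 each; exact two-sided permutation p = 0.10, the smallest p that 3 against 3 libraries allow, and 0.175 after Benjamini-Hochberg adjustment over the 7 ratios and shares compared). The wild-type shares rest on 93, 129 and 63 globin counts, and their exact 95% intervals were 49.5 to 70.2%, 52.3 to 69.7% and 53.7 to 78.0%. The intervals of the second and the third knockout libraries were 48.6 to 49.8% and 48.3 to 49.9%. Of the wild-type intervals, that of the first library alone reached into this range. Intervals and floors here cover counting error only.

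Within the classes, the share of Hba-a2 among alpha counts was 4.52%, 2.10% and 5.75% in knockout and 3.57%, 3.80% and 0% in wild type (exact permutation p = 0.40, adjusted 0.56). The knockout libraries differed from each other beyond counting error, with intervals of 4.21 to 4.85%, 1.86 to 2.35% and 5.23 to 6.30%. The share of Hbb-bt among beta counts was 8.70%, 10.8% and 10.4% in knockout and 10.8%, 22.0% and 0% in wild type (exact permutation p = 0.80, adjusted 0.80). For both paralog shares the groups overlapped. In wild type they rest on 5 Hba-a2 counts and 15 Hbb-bt counts in all.

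Set library by library against Alas2, the globins had a higher ratio in each knockout library than in any wild-type library, which the exact permutation test on 3 against 3 libraries cannot bring past the threshold. The 4 globins together had 94.4, 96.7 and 67.2 counts for each Alas2 count in knockout and 4.89, 64.5 and 6.30 in wild type. The second wild-type library, with 2 Alas2 counts, lay close under the lowest knockout library, and its exact 95% interval of 17.5 to 538 covered all 3 knockout values. On the length-scaled FPKM, the same ratios were 290, 297 and 207 in knockout and 14.9, 198 and 19.0 in wild type. The mean log2 ratio of counts, with 0.5 added to each count, was 2.89 higher in knockout (exact permutation p = 0.10, adjusted 0.175), 3.98 higher without the second wild-type library and 2.26 higher without the first.

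The globins had 298, 632 and 203 counts per Slc4a1 count in knockout and 46.5 and 129 in the first and second wild-type libraries. The third wild-type library had no Slc4a1 count, which puts its ratio above an exact lower bound of 16.6. The intervals of the first and second wild-type libraries, 12.5 to 390 and 22.7 to 5134, each held at least 1 knockout value. The mean log2 ratio was 2.17 higher in knockout, and 2.56 higher without the third wild-type library, whose value is set by the 0.5 added to its count of 0. The exact permutation p of 0.10 (adjusted 0.175) rests on that value too and is given without a reading. Alas2 against Slc4a1 gave 3.16, 6.53 and 3.01 in knockout and 9.50 and 2 in the first and second wild-type libraries, which overlapped (log2 difference -0.72, exact permutation p = 0.60, adjusted 0.70). Without the third wild-type library that difference was 0.13.

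**Figure D3:**
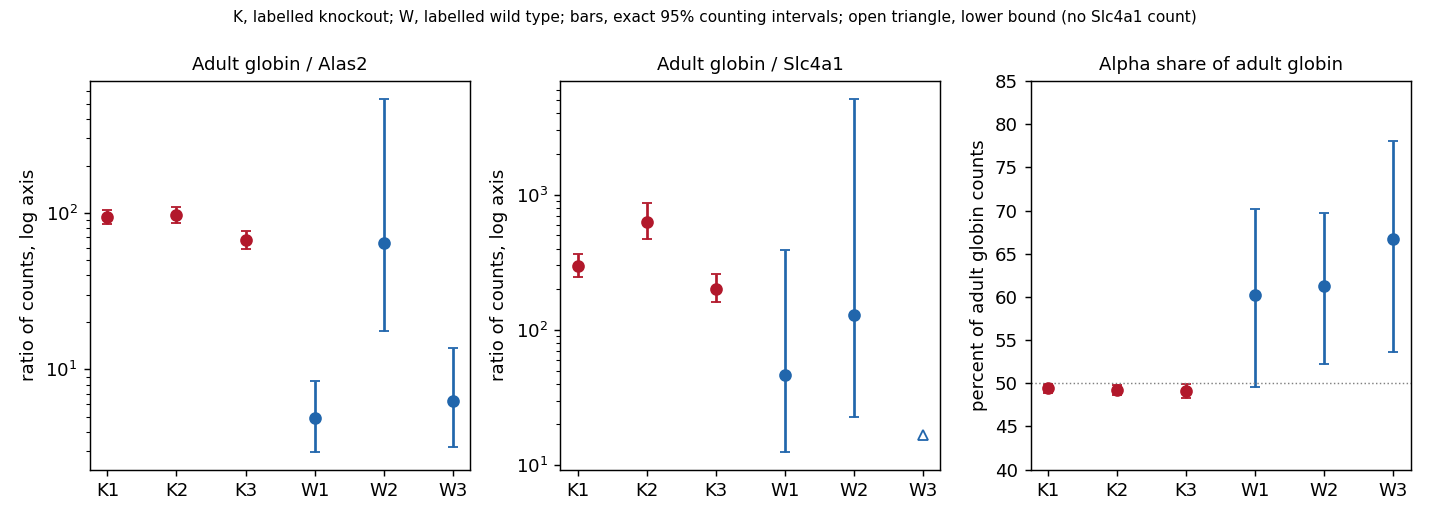
Counts of the 4 adult globins per Alas2 count and per Slc4a1 count (log axes), and the alpha share of adult globin counts in percent on an axis that starts at 40, for the 3 libraries labelled knockout (red, left) and the 3 labelled wild type (blue, right), with exact 95% counting intervals and an open triangle for a lower bound. The alpha share lies at 49.1 to 49.4% in knockout and at 60.2 to 66.7% in wild type, and the wide bars of the ratios in wild type come from 2 to 19 Alas2 counts and 0 to 2 Slc4a1 counts.

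Other erythroid genes moved in both directions. In 5 lists of further globins, heme synthesis, red cell membrane, erythroid factors and other erythroid genes, 47 of the 71 genes in the table were tested, 18 of them (38.3%) rose, 12 (25.5%) fell and 17 were not called. The 12 that fell include Cygb, the only tested gene of the further globins. Over all genes tested, 28.7% rose and 25.1% fell. The median log2 fold change of the 47 genes was 0.44, against 7.92 for the 6 globin, Alas2 and Slc4a1 genes and -0.03 for all genes tested.

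Of 19 red cell membrane genes, 9 were tested, 4 rose, 5 were not called, against 28.7% of all genes called higher. In 5 of the 9 tested genes all knockout libraries exceeded all wild-type libraries, against 31.9% of all genes tested. Aqp1, a water channel of red cells and of endothelium, rose by 6.80 ± 0.33 on the log2 scale (edgeR adjusted p = 1.79e-07). Gypc, which encodes glycophorin C, rose by 7.64 ± 0.53, with 241, 276 and 278 counts in knockout and 0, 1 and 3 in wild type, and by 8.82 without the third wild-type library. Epb41, the protein 4.1 gene that many tissues use, was not called (log2 fold change -0.16 ± 0.23). The count of membrane genes that rose was 7 without the second knockout library and 10 with no filter on low counts.

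Of the 13 heme synthesis genes, 3 rose, 3 fell and 7 were not called. Alas1, the first enzyme of the pathway outside the erythroid lineage, rose by 2.30 ± 0.25, with 3285, 4097 and 3551 counts in knockout and 679, 903 and 832 in wild type. Tmem14c, which carries heme precursors in mitochondria, rose by 1.26 ± 0.26. Alad, the enzyme after the synthase, fell by 1.69 ± 0.23, and Cpox fell by 0.71 ± 0.19. Without the second wild-type library 1 gene of this list fell, and with upper-quartile scaling 5 did. Fech, which inserts iron into heme, and Urod were not called, at -0.33 ± 0.20 and -0.01 ± 0.22, and Fech was called lower with upper-quartile scaling (edgeR adjusted p = 0.0354).

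Of the 10 erythroid transcription factor and cofactor genes, 8 were tested, 4 rose and 4 fell. Tal1 rose by 4.98 ± 0.53, Lmo2 by 3.67 ± 0.30, Cbfa2t3 by 2.11 ± 0.32 and Nfe2 by 2.02 ± 0.35. These factors are known in blood progenitors and other blood lineages as well as in erythroid cells. Bcl11a, which represses embryonic or fetal globins in mouse and human erythroid cells, fell by 3.49 ± 0.25, Zfpm1, a GATA cofactor, by 2.77 ± 0.26 and Ldb1, a bridging protein used in many tissues, by 1.90 ± 0.24.

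Gata1 and Klf1, the factors of this list best known for driving the erythroid programme, were rare in both groups. Gata1 had 6, 5 and 14 counts in knockout and 14, 4 and 3 in wild type, overlapped and was not tested. Klf1 had 3, 8 and 3 counts in knockout and 26, 13 and 15 in wild type, so each knockout library was below each wild-type library (edgeR log2 fold change -1.77 ± 0.64, adjusted p = 0.0378). That call was lost with the replicate block (adjusted p = 0.0569), in DESeq2 (0.0632), with no filter (0.0809), and when the first or the third knockout library or any 1 wild-type library was left out (0.0713 to 0.159). Without the second knockout library the log2 fold change was -2.45. The globins had 8.23, 7.63 and 4.44 counts for each count of the factor list in knockout and 0.00767, 0.0131 and 0.00563 in wild type, a log2 difference of 9.62 (exact permutation p = 0.10, adjusted 0.175). Ldb1, Bcl11a and Zfpm1, which fell, held 52.7 to 71.1% of the factor counts in knockout and 97.0 to 98.0% in wild type, and the globins on their own differed by 8.16.

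Of the 19 other erythroid genes in the table, 16 were tested, 7 rose, 4 fell and 5 were not called. Car2, a carbonic anhydrase, rose by 5.88 ± 0.43, with 198, 342 and 224 counts in knockout and 5, 3 and 6 in wild type. Ube2l6, a ubiquitin-like conjugating enzyme also induced by interferon, rose by 4.57 ± 0.29. Bpgm, whose product sets the oxygen affinity of hemoglobin through bisphosphoglycerate, rose by 1.55 ± 0.24. Tfr2, transferrin receptor 2, fell by 3.50 ± 0.37, Stap2, a signalling adaptor, by 2.21 ± 0.27, Hemgn, a nuclear protein of blood cells, by 3.20 ± 0.57, and Prdx2, a peroxidase abundant in red cells, by 1.09 ± 0.30. Epor, the erythropoietin receptor gene, had 9, 7 and 9 counts in knockout and 23, 21 and 19 in wild type and was not called (adjusted p = 0.0622). Car1, a carbonic anhydrase of red cells, had no count in any library.

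**Figure D4:**
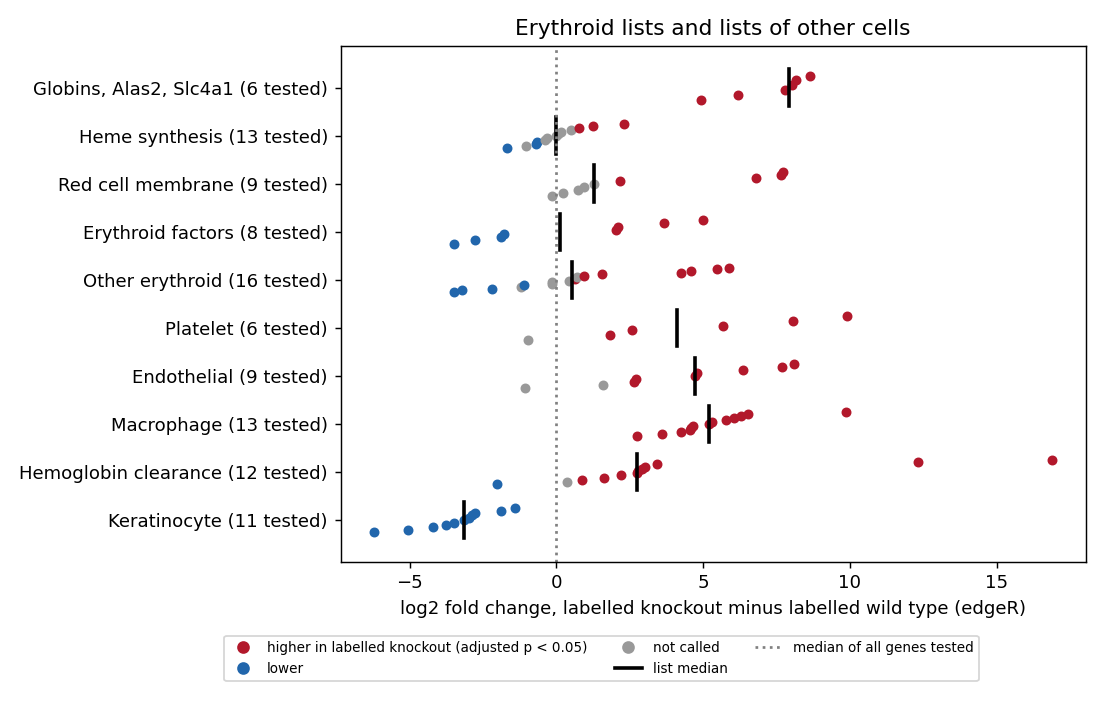
edgeR log2 fold changes, labelled knockout minus labelled wild type, of tested genes grouped by list. Called genes are in red (higher) or blue (lower) and genes not called in grey. Black bars are list medians, and the dotted line is the median of all genes tested. The globins, Alas2 and Slc4a1 lie at 4.91 to 8.64, while the heme synthesis and erythroid factor lists spread to both sides of 0.

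Lists of other blood, vessel and immune cells also held many genes that rose, against 28.7% higher and 25.1% lower over all genes. Of 12 platelet genes, 6 were tested and 5 rose (8 to 10 with FPKM or with no filter), and the summed level of the list was 1006 to 1508 CPM in knockout and 6.05 to 9.11 CPM in wild type. Pf4, platelet factor 4, held 928 to 1442 CPM of this sum in knockout. Pf4 had 16381, 22066 and 20423 counts in knockout and 9, 40 and 17 in wild type. Ppbp, another platelet chemokine, rose by 5.68 on the log2 scale and by 7.02 without the first wild-type library. The platelet receptor gene Gp1ba was not called, with 6, 6 and 14 counts in knockout and 19, 15 and 22 in wild type. The platelet receptor gene Gp9 had 22, 16 and 8 counts in knockout and none in wild type. Of 15 endothelial genes, 9 were tested, 7 rose and none fell (8 rose and 1 fell with the replicate block), and the summed level of the list was 241 to 421 CPM in knockout and 9.41 to 12.1 CPM in wild type. Among them Pecam1 rose by 7.70, and the endothelial cadherin gene Cdh5 had 120, 68 and 165 counts in knockout and 1, 0 and 0 in wild type (ratio 385, exact counting interval 68.6 to 15241). Egfl7, with 42, 16 and 18 counts in knockout and 59, 46 and 68 in wild type, was not called. Plvap, with 53, 23 and 12 counts in knockout and 20, 5 and 6 in wild type, overlapped and was not called. Tek, Cldn5, Emcn, Robo4, Mmrn2 and Nos3 overlapped between the groups and were not tested. All 13 macrophage genes rose, with summed levels of 8500 to 15058 CPM in knockout and 201 to 221 CPM in wild type, among them Fcgr1 by 6.30 and the mannose receptor gene Mrc1 by 9.88 on the log2 scale. The part of these cells, and of the fall in keratinocyte genes, in the globin result was not tested.

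The third knockout library, with the lowest summed globins (941 CPM, against 1893 and 1775 CPM in the first and second), also had the lowest sum of keratinocyte genes, with 11748, 11963 and 4615 CPM in knockout libraries 1, 2 and 3. It held the lowest value of its group for 9 of the 11 tested keratinocyte genes, and the second library for the other two. The summed macrophage list ran the other way from the globins, with 8500, 12900 and 15058 CPM in the 3 knockout libraries. The endothelial sum of 241, 334 and 421 CPM did so too, and Pecam1 alone held 166, 252 and 334 CPM of it. Of the 9 tested endothelial genes, 4 were highest in the first knockout library, 1 in the second and 4 in the third. The platelet list had 1006, 1508 and 1331 CPM, and Pf4 alone held 928, 1442 and 1265 CPM of it. Of the 6 tested platelet genes, 3 were highest in the first knockout library, 2 in the second and 1 in the third. Single macrophage genes differed, 7 of 13 being highest in the second knockout library and 6 in the third. Of 13 genes for uptake and breakdown of hemoglobin and heme, 12 were tested, 10 rose, 1 fell and 1 was not called, against 28.7% higher and 25.1% lower over all genes. Cd163, the hemoglobin-haptoglobin receptor of macrophages, had 35300, 46549 and 70164 counts in knockout and 1, 0 and 0 in wild type (ratio 165705, exact counting interval 29740 to 6545030). Cd163 was thus highest in the knockout library with the least globin. Hp, which encodes haptoglobin, had 4384, 8467 and 7632 counts in knockout and 2, 2 and 0 in wild type, and Fth1, ferritin heavy chain, rose by 2.77 ± 0.39. Slc40a1, the iron exporter ferroportin, fell by 2.03 ± 0.28.

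The genes most like the summed globins over the 6 libraries, by the root mean square distance of log2 CPM centred on each gene's mean among 11416 candidates, were Ptgs2 (0.39), Osm (0.42), Tslp (0.43), Ccl3 (0.45) and Gm5416 (0.47). Ptgs2 had 150, 107 and 78.4 CPM in knockout and 0.491, 0.489 and 0.0531 CPM in wild type. Those nearest to Alas2 were other genes, Fads3 (0.26), Aatk (0.28), Adamts5 (0.29), Ifi213 (0.34) and Sulf1 (0.37). These distances describe profiles over 6 libraries that mostly differ by group.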

How the data were processed

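Per the submitters' processing notes, HISAT2 2.0.5, featureCounts 1.5.0-p3 and mm10 were used. The sources used here give no parameters, strand setting, multi-mapping rule or annotation release, so reads of near-identical globins or of overlapping genes can be split or lost. The authors deposited whole-number counts per gene and FPKM for the same 6 libraries and 54532 genes. No gene was a summary line.

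The deposited counts were tested with edgeR 4.0.16 in R 4.3.3: TMM factors, its filter (minimum count 10, minimum total 15; 16471 genes kept, holding at least 99.7% of each library's counts), robust quasi-likelihood fits with genotype as the only term, and Benjamini-Hochberg adjustment over all genes tested at 0.05. The script was tested on simulated data. The SE is the size of the fitted log2 change divided by the root of the quasi-likelihood F. Ratio intervals are exact conditional binomial and share intervals Clopper-Pearson, at 95%. The deposited FPKM values served for levels between genes and as alternatives. No libraries agreed within sampling noise.

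The members and lists were chosen with earlier results of these data known. Named genes are the 6 members, Paxbp1, from each list the 2 called genes with the smallest adjusted p in each direction and the most abundant gene, Gata1 and Klf1, and the 5 tested protein-coding genes (mean of at least 5 CPM) nearest to the globins and to Alas2 in profile. Any other gene is a list member named after its values were seen. Hbb-b1, Hbb-b2, Ahsp and Rhced were not analysed here. Some genes that the rule names are left out of the text.

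The alternatives tried were summed paralogs, scaling by RLE, upper quartile or library size, no filter and a stricter one (1 CPM in 3 libraries), DESeq2 1.42.0, limma-voom (limma 3.58.1), non-robust fits, the replicate number as a block, the fit without each library or without both numbered 1, and limma-trend on the deposited FPKM with a pseudocount of 1 or 0.1 before the log2. Libraries with the same number in the titles deviated together from their group means (r = 0.23, 0.34 and 0.18 for numbers 1, 2 and 3, and -0.32 to 0.07 for other pairs), so the numbers were treated as pairs in the block. What a number stands for is not stated in the labels.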

Additional observations from a re-analysis of the deposited data

How the results depend on the processing

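Each of the 6 genes and both summed paralog classes stayed called and higher in knockout under all 18 alternatives (19 for Alas2 and Slc4a1). The log2 fold change ranged from 7.47 to 8.12 for Hba-a1, 5.20 to 8.88 for Hba-a2, 8.10 to 8.90 for Hbb-bs, 6.28 to 9.38 for Hbb-bt, 2.74 to 5.68 for Alas2 and 0.92 to 7.01 for Slc4a1, each lowest value coming from log2(FPKM + 1). With the replicate block 5089 genes were higher and 4792 lower, with 19 erythroid list genes higher and 11 lower. The block ended the call of Klf1, so that 3 factor genes fell, and put 4 heme synthesis genes higher, and 8 endothelial genes higher and 1 lower. Set against the tested membrane and factor genes summed, the log2 globin ratio was 8.93 higher in knockout. It was 2.89 higher against Alas2, 2.17 against Slc4a1 and 9.62 against the factor list, and 8.16 for the globins on their own. Ldb1, Epb41 and Bcl11a held 8957, 2307 and 2257 of the 14689 summed counts in the first wild-type library. In the first knockout library they held 2521, 2037 and 221 of 7881. The cause of the gap between these ratios was not tested. With single libraries left out, the log2 difference of Alas2 to Slc4a1 ran from -1.70 to 0.13. Without the second wild-type library Cpox missed the threshold (edgeR adjusted p = 0.0526). Without both libraries numbered 1, the Klf1 adjusted p was 0.207. The median of all genes moved to -0.22 with upper-quartile scaling and -0.18 with library size only. At like depth in both groups, wild type held only 285 adult globin, 31 Alas2 and 3 Slc4a1 counts over 3 libraries, which widens its intervals.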

Other observations

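A globin pseudogene of the table, Hba-ps4, had 15 counts over the knockout libraries and 7 over the wild-type libraries, while Hba-ps3 had none in either.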
